A study of Mus musculus with 8 samples.

Results

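The genes for ion channels and neurotransmitter receptors, which are used above all by neurons and muscle, carried 373 of the 53761 H3K9me3 peaks found in mouse colon crypts. The peaks were chosen by name, as all peaks whose closest gene within 5 kb begins with the symbol of a glutamate, GABA, glycine, acetylcholine or serotonin receptor or of a potassium, sodium or calcium channel. They lay at 83 genes, of 5543 genes with a peak, and 15680 peaks had a gene in reach at all. The noncoding transcript Kcnq1ot1 was left out by the rule. H3K9me3 was measured by ChIP-seq, the sequencing of DNA that an antibody against the modified histone pulls down, in 3 libraries from Smarcad1-KO mice and 3 from WT mice of the C57BL/6 strain, all males. In the KO, Cre recombinase driven by the Villin promoter deletes the floxed Smarcad1 gene in the intestinal epithelium. Both groups were whole crypt isolates, so the chromatin holds any other cells that came off with the crypts, and 1 input library of each genotype, chromatin taken before the antibody step, came with them. Ages were not given in the sources used here, and a ChIP against a histone mark does not check the deletion itself.

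Trimethylation of lysine 9 on histone H3 marks compacted chromatin, where HP1 proteins bind and transcription is held low. Smarcad1 is a chromatin remodeller that helps to restore this mark after DNA replication. Ionotropic receptors are ligand-gated channels that pass ions directly, while metabotropic receptors act through G proteins; both are best known from synapses. The colon epithelium also uses some channels itself, such as potassium channels that support chloride secretion, and whether such genes carry H3K9me3 in crypts and how far they depend on Smarcad1 is what the comparison addresses.

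The chromatin under the mark differed widely in sequence, and 5 stretches of 200 bases show the range, each the stretch with most CpG dinucleotides outside any annotated UTR in its peak. CpG is the pair in which mammalian DNA is methylated, and it is printed in capitals; the letters CG read the same on both strands. The sequences are from the plus strand of GRCm38. Those of Grin3b and Cacna2d4 come from the 2 peaks that passed the test described further on. Kcnj6 is from the peak with the highest level per kb among peaks of at least 1 kb. Grik2 is from the strongest such peak in the gene with most peaks, and Kcnq1 from a peak with many CpG in a gene of the colon epithelium.
Grin3b, chr10:79976812-79977011: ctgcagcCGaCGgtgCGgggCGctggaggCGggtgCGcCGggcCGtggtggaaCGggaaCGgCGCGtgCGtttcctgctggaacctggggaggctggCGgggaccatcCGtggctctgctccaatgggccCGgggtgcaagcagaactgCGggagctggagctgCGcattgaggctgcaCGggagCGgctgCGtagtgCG
Cacna2d4, chr6:119253299-119253498: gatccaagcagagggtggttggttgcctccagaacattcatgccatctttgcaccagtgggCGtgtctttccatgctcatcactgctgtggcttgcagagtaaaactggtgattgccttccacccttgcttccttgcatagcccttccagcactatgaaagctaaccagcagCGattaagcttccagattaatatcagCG
Kcnj6, chr16:94811101-94811300: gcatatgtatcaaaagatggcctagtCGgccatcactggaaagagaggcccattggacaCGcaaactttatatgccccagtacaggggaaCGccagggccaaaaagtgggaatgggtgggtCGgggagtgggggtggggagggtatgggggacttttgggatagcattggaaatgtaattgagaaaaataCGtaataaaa
Grik2, chr10:49553528-49553727: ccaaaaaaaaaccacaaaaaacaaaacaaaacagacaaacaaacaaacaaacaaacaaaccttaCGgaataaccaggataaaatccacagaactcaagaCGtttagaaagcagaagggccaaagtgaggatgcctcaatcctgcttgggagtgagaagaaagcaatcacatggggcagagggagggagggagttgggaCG
Kcnq1, chr7:143295582-143295781: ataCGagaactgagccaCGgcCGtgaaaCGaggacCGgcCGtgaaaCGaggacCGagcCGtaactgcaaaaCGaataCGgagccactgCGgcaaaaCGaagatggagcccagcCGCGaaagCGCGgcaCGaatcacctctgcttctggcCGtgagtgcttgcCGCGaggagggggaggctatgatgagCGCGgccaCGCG
The Grin3b stretch holds 22 CpG and lies in a coding exon of Grin3b that also overlaps an exon of Tmem259 on the opposite strand. The Kcnq1 stretch holds 25 CpG and lies in an intron of Kcnq1, inside Kcnq1ot1 on the opposite strand. The intronic stretches of Cacna2d4, Kcnj6 and Grik2 hold 3, 5 and 3. Over whole peaks the density was 57.3 CpG per kb at Grin3b and 49.0 at Kcnq1, values that 0.286% and 0.515% of all peaks reach. At Cacna2d4 it was 6.67 per kb, near the median of 6.67 over all peaks and of 6.19 over the channel and receptor peaks.

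Channel and receptor genes were marked mostly in their introns. Of the 373 peaks, 316 (84.7%) lay in introns, 38 touched an exon, 8 covered an annotated transcript start and 11 lay outside the gene. Among all peaks at a gene found in the annotation, 66.6% were intronic and 17.1% outside. Peaks whose gene was not found there are left out of these shares, and gene length was not matched. Widths ran from 300 to 7200 bp with a median of 1050 bp, against 1200 bp for all peaks at a gene and 1050 bp over all peaks. None of the 286 peaks of at least 10 kb, among 53761 in the whole set, was at one of these genes. The median WT level per kb, the log2 read count minus the log2 of the width in kb, was 3.95 and that of all peaks at a gene 4.01. The median WT level over input, the log2 ChIP value minus the log2 input value, was 0.74, with values from -0.32 to 3.00. For all peaks at a gene it was 0.81. The ChIP values were matched to a shared distribution and the input values were not scaled, so this difference ranks peaks and is not a fold enrichment. Soft-masked bases, which mark repeats in the reference, made up a median of 28.4% of a peak, against 32.2% at all peaks at a gene and 37.8% over all peaks. These are descriptions of a set of genes chosen by name, and no test was run on them.

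Long genes held the peaks. Of 222 protein-coding genes that the rule names in the annotation, 83 (37.4%) had a peak, against 21.0% of all protein-coding genes. Within a range of lengths the shares were closer. Up to 50 kb 12 of 114 genes had a peak (10.5%, against 13.0% of all genes of that length), from 50 to 200 kb 33 of 58 (56.9%, against 41.2%), and over 200 kb 38 of 50 (76.0%, against 76.8%). Per Mb of gene, the channel and receptor genes had 11.5 peaks inside them and all protein-coding genes 11.0, but the ranges of length differed in direction. Up to 50 kb the channel and receptor genes had 3.86 peaks per Mb, against 7.42 in all genes of that length. From 50 to 200 kb they had 13.1, against 8.13, and over 200 kb 11.7, against 15.7. None of the 10 genes on the X chromosome had a peak. The whole set has 474 of its 53761 peaks there, and the share of all X genes with a peak was not computed.

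**Figure D1:**
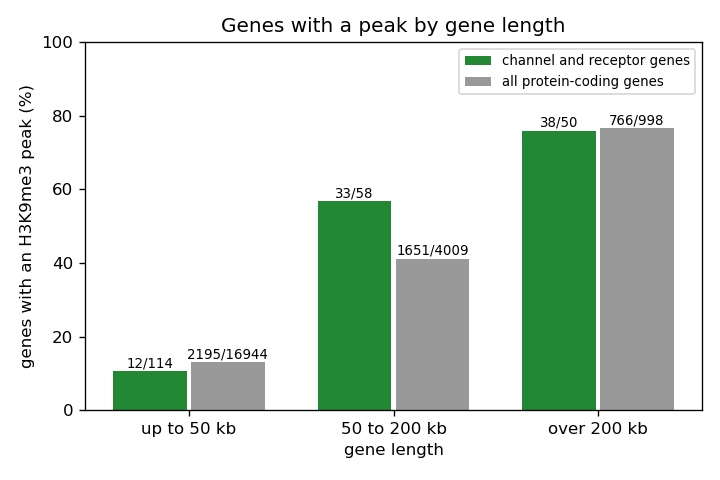
Share of genes with at least 1 H3K9me3 peak (%) in 3 ranges of gene length (kb), for the channel and receptor genes (green) and all protein-coding genes (grey), with the number of genes above each bar. The bars of both sets rise with length and are nearly level over 200 kb, at 76.0% and 76.8%.

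The classes differed in how many of their genes were marked, and also in gene length. The median gene length was 318 kb for metabotropic glutamate receptors, 30.8 kb for potassium channels and 19.7 kb for serotonin receptors. The shares below were not matched for it. Metabotropic glutamate receptors were marked most widely, with 65 peaks at 7 of 8 genes (Grm). The ionotropic glutamate class had 87 peaks at 10 genes. Among these 10 is Grid2ip, a partner protein and no receptor, with 1 peak outside the gene. Peaks lay at 3 of 3 Grid genes, Grid2ip counted, and at 3 of 5 kainate receptor genes (Grik). They lay at only 1 of 4 AMPA receptor genes (Gria), which was Gria4, and at 3 of 7 NMDA receptor genes (Grin). Of the GABA-A receptor genes (Gabr), whose products let chloride into neurons, 9 of 19 were marked, and of the 5 glycine receptor genes none. Together with 1 of 2 GABA-B receptor genes, the class had 60 peaks. Potassium channels formed the largest class, with 94 peaks at 33 of 94 genes. Calcium channels had 33 peaks at 10 of 26 genes and sodium channels 18 at 7 of 14. The receptors with small genes had few, namely 9 peaks at 3 nicotinic and 1 muscarinic acetylcholine receptor genes and 7 peaks at 2 of 14 serotonin receptor genes. Auxiliary subunits and partner proteins accounted for 39 peaks at 12 genes, among them Cacna2d3 and Cacna2d4, subunits that assist calcium channels.

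In WT crypts the classes had nearly the same level. The median level per kb was lowest in metabotropic glutamate receptors, at 3.89, followed by GABA receptors at 3.92, ionotropic glutamate receptors at 3.95, potassium channels at 3.97, calcium channels at 4.00, acetylcholine receptors at 4.03, serotonin receptors at 4.04 and sodium channels at 4.10. The SD of these medians over the 3 WT libraries was 0.03 to 0.08 in 6 classes, and 0.25 and 0.31 in the acetylcholine and serotonin receptors, whose position in the order is therefore not resolved. The 4 lowest classes and calcium channels followed each other in steps of 0.02 to 0.03, no more than about an SD, and sodium channels stood 0.11 above calcium channels, whose SD was 0.08. The strongest peak per kb of each class, among peaks of at least 1 kb, was at Kcnj6, an inward rectifier of neurons (4.70), Scn8a (4.65), Grik4 (4.56), Cacna2d4 (4.43), Grm4 (4.38), Chrna5 (4.27), Htr1f (4.25) and Gabrg3 (4.08). Over input the medians ran from 0.68 in GABA receptors to 0.96 in serotonin receptors.

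A few genes held most of the mark. The 10 genes with 10 or more peaks carried 205 of the 373, while 32 genes had a single peak. Grik2, a kainate receptor subunit, had 53 peaks in 694 kb, covering 9.45% of the gene, from 22.4 to 672 kb after its start. Grm8 and Grm7, glutamate receptors that dampen transmitter release, had 27 and 18, and Grm5, a postsynaptic receptor of the same family, had 14. Kcnt2, a sodium-activated potassium channel, had 22, Cacna2d3 13, and the GABA-A receptor subunit Gabrg3 and the potassium channel partner Kcnip4 10 each.

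Kcnt2 held the 2 widest peaks, and 3 of its wide peaks had WT levels over input below the median of 0.74 of the channel and receptor peaks. The stretches of 7200, 5700 and 5250 bp had WT levels over input of 0.30, 0.03 and 0.13 on the log2 scale, and KO levels over input of 0.64, 0.86 and 0.75. The inputs differed here. Summed over the 22 peaks, the WT input held 648 reads and the KO input 484, a KO to WT ratio of 0.75 where it was 0.94 over all peaks. The mean ChIP level of the 22 peaks was 4.86, 4.85 and 4.83 in the WT libraries and 4.61, 4.72 and 5.13 in KO, so the KO libraries fell on either side of WT, with KO replicate 3 highest. The difference was -0.03 on the log2 scale, and none of the 22 peaks passed the test.

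Loss of Smarcad1 left nearly all of these peaks without a change that the test could call. KO and WT were compared by limma over all 53761 peaks with Benjamini-Hochberg adjustment, and a peak was called at an adjusted p under 0.05. Called were 2 of the 373 peaks (0.536%), 1 higher and 1 lower in KO, where 1.66% of all peaks were called (0.796% higher and 0.863% lower) and 3.90% of all peaks at a gene. At an unadjusted p under 0.05 there were 26 channel and receptor peaks (6.97%), against 10.6% of all peaks. The values of KO and WT did not overlap at 55 (14.7%), against 15.6% of all peaks and 20.0% of peaks at a gene. Their median log2 fold change was -0.01, that of all peaks 0.00, and 185 of the 373 were above 0. The p-values measure the spread between these libraries, which the study calls biological replicates while the labels name no animals. The median depth was 15 to 20 reads per channel or receptor peak and library, against 14 to 20 over all peaks.

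**Figure D2:**
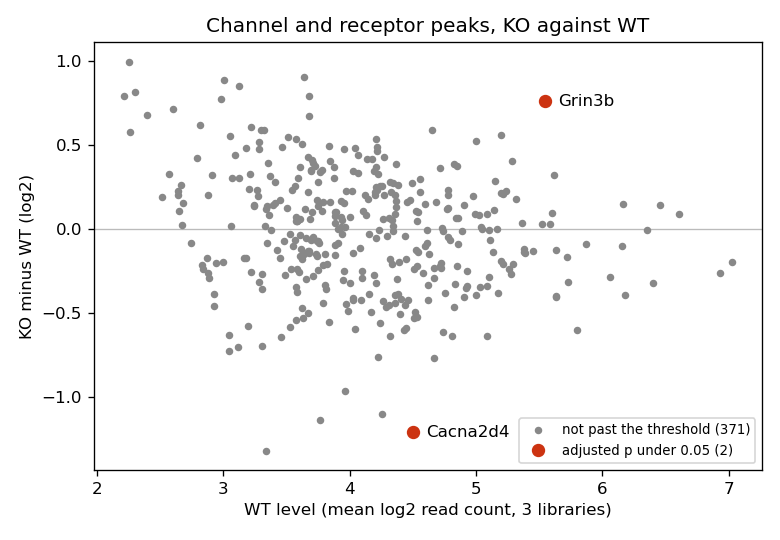
Each of the 373 channel and receptor peaks by its WT level (mean log2 read count of 3 libraries, horizontal axis) and its KO minus WT difference (log2, vertical axis). The 371 grey peaks spread to both sides of 0, from -1.32 to 0.99, and the 2 red peaks, Grin3b at 0.76 and Cacna2d4 at -1.21, passed the adjusted p of 0.05.

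The increased peak lay at Grin3b, which encodes an NMDA receptor subunit that binds glycine. It spans 3300 bp (chr10:79975351-79978650, GRCm38), covers exons of Grin3b and runs 1460 bp past its end, and all along it overlaps Tmem259, a gene on the opposite strand, so the peak cannot be assigned to either gene alone. Its log2 read counts were 5.50, 5.69 and 5.45 in WT and 6.36, 6.33 and 6.24 in KO. Every KO library was above every WT library, and the difference was 0.76 with an SE of 0.16 (limma, adjusted p = 0.00346). With a variance prior that does not follow the level of the peaks, the limma adjusted p was 0.312. The input held 32 reads in WT and 28 in KO. In WT the level per kb was 3.82, which is above that of only 28.8% of all peaks.

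The decreased peak lay in an intron of Cacna2d4, a calcium channel subunit best known from the retina. It spans 1050 bp (chr6:119252701-119253750). Its values were 4.63, 4.49 and 4.38 in WT and 3.08, 3.35 and 3.44 in KO. The groups were well apart, with a difference of -1.21 and an SE of 0.30 (limma, adjusted p = 0.0185). The input held 12 reads in WT and 9 in KO. With any 1 of the WT libraries or KO replicate 1 left out, the difference stayed between -1.27 and -1.11 but the adjusted p rose to between 0.0582 and 0.136. Without the trended prior it was 0.0878. The other 3 peaks of Cacna2d4 were not called.

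Other peaks came near the threshold without passing. One was 1 of 5 peaks at Gabbr2, a subunit of the metabotropic GABA-B receptor, with 4.43, 4.31 and 4.05 in WT and 3.71, 3.35 and 2.42 in KO (difference -1.10, SE 0.34, limma adjusted p = 0.0985). It was called with KO replicate 1 left out. At Grm8 a peak had 3.77, 3.77 and 3.38 in WT and 4.86, 4.42 and 4.35 in KO (difference 0.90, SE 0.29, limma adjusted p = 0.112). At both the groups did not overlap, which was also the case at 15.6% of all peaks.

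**Figure D3:**
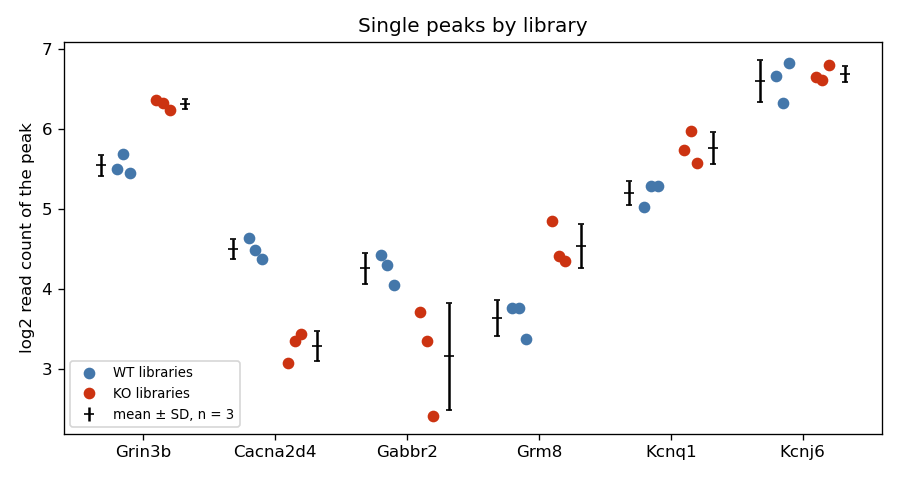
Log2 read counts of 6 single peaks in the 3 WT (blue) and 3 KO (red) libraries, with mean and SD in black. At Grin3b, Cacna2d4, Gabbr2, Grm8 and Kcnq1 the groups do not overlap, though only the first 2 passed the test, and at Kcnj6 WT (6.32 to 6.83) and KO (6.61 to 6.81) lie together.

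Class by class, the libraries of both genotypes overlapped in all 8. The means over a class are described without a test. Over the 94 potassium channel peaks the mean log2 read count was 4.30, 4.43 and 4.35 in WT and 4.33, 4.25 and 4.37 in KO. Over the 87 ionotropic glutamate receptor peaks it was 4.01, 4.08 and 4.11 in WT and 4.05, 4.04 and 4.06 in KO. The classes thus differed between genotypes by -0.04 and -0.02, less than the spread of the WT libraries. Metabotropic glutamate receptors read 3.81 ± 0.02 in WT and 3.87 ± 0.09 in KO (SD, n = 3), and GABA receptors 4.04 ± 0.04 and 3.99 ± 0.06. Calcium channels read 4.35 ± 0.10 in WT and 4.28 ± 0.04 in KO, and sodium channels 4.25 ± 0.05 and 4.24 ± 0.15. The 2 smallest classes had the widest spread, with acetylcholine receptors at 3.93 ± 0.21 and 3.98 ± 0.07 and serotonin receptors at 3.84 ± 0.24 and 3.93 ± 0.14. With each gene counted once instead of each peak, the difference of calcium channels went from -0.07 to -0.26 and that of ionotropic glutamate receptors from -0.02 to -0.09. Over the 8 classes, by peak, the differences ran from -0.07 to 0.08. Below the level of a class, the library means did not overlap in 5 of 28 families, which is 17.9%, beside 25.0% for gene means over all genes with a peak. Lower in KO were among others the Kcnh potassium channels, with 8 peaks at 4.81, 4.65 and 4.99 in WT and 4.62, 4.62 and 4.48 in KO (-0.24), the GABA-B receptor peaks at Gabbr2 (-0.29) and those of Kcnu1 (-0.47). The 3 peaks of Kcns3 were higher (0.43).

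**Figure D4:**
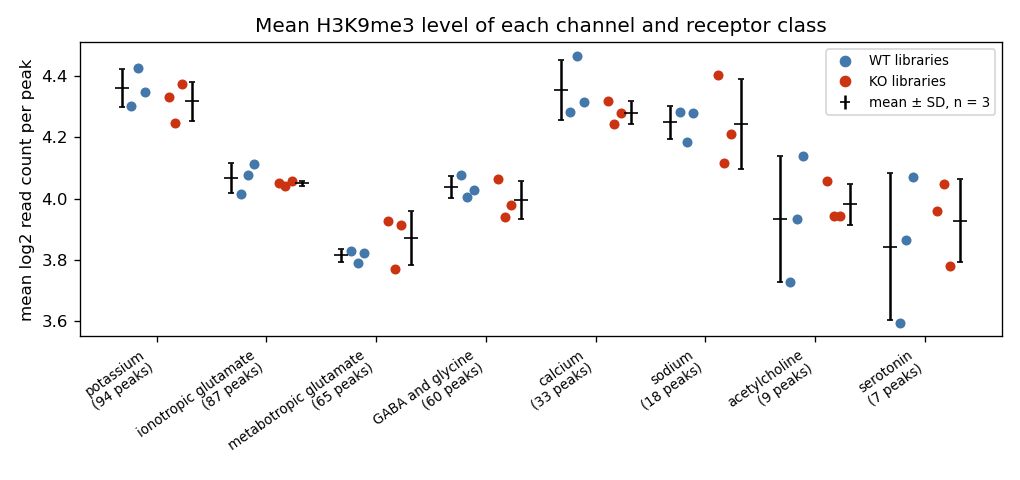
Mean log2 read count per peak of each channel and receptor class in the 3 WT (blue) and 3 KO (red) libraries, with mean and SD beside them; the axis does not start at 0. In each of the 8 classes the libraries of both genotypes overlap, and the differences of the means run from -0.07 in calcium channels to 0.08 in serotonin receptors.

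Among the peaks singled out as the largest differences of each class whose groups did not overlap, no other passed the test. In potassium channels the largest increase was a peak of Kcnn2 (difference 0.88), a calcium-activated channel. In GABA receptors the largest decrease was a peak of Gabrb1 (-1.32), only 300 bp wide and with KO values of 0.61, 3.02 and 2.42 against 3.20, 3.19 and 3.61. Without KO replicate 1 the last difference was -0.62. Grik2 gave the largest decrease among ionotropic receptors (-0.97), Grm4 (-0.64) among metabotropic ones and Cacna2d3 (0.52) the largest increase among calcium channels. At Scn8a, a sodium channel of neurons, the peak with the highest level of its class read 5.38, 5.08 and 4.79 in WT and 4.58, 4.48 and 4.28 in KO, a difference of -0.64. Chrm2, the muscarinic receptor of heart and smooth muscle, had a peak that differed by 0.19 and Chrna5, a nicotinic subunit, one by -0.53. Htr1f, a serotonin receptor, had one that differed by -0.50. Single libraries moved some of these by over 1.5 times, to 0.55 at Kcnn2 and 0.30 at Cacna2d3 without WT replicate 3, to -0.30 at Chrna5 without KO replicate 3 and to -0.29 at Htr1f without WT replicate 1. Adjusted p-values of limma for all peaks of this paragraph were between 0.211 and 0.812. The peaks of Scn8a, Grm4, Chrna5 and Htr1f also had the highest WT level per kb of their class. They were thus picked by the same WT values that enter their differences.

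The genes with most peaks showed the same mixture within a gene. Grik2 had 24 peaks above 0 and 29 at or below it, from -0.97 to 0.67, and its mean over 53 peaks was 3.97, 4.03 and 4.10 in WT and 3.97, 4.07 and 4.06 in KO. Grm8 had 16 of 27 peaks above 0, Kcnt2 11 of 22 and Grm7 10 of 18. Cacna2d3 leaned to one side, with 11 of 13 above 0. Its mean was 4.03, 4.29 and 4.11 in WT and 4.43, 4.30 and 4.25 in KO, so that the ranges of the libraries still overlapped.

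**Figure D5:**
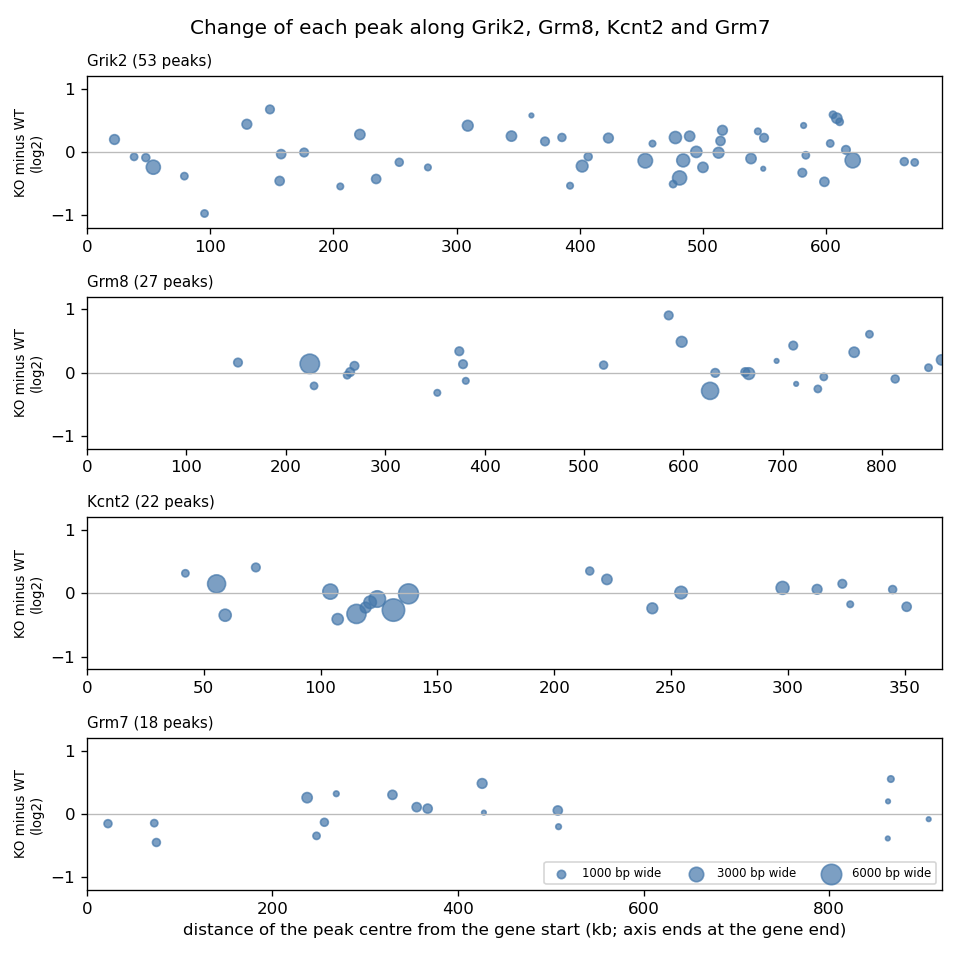
KO minus WT difference (log2) of each peak of Grik2, Grm8, Kcnt2 and Grm7 against the distance of its centre from the gene start (kb), with the area of a point in proportion to the peak's width. Points lie on both sides of 0 along all 4 genes, the 27 peaks of Grm8 begin 152 kb after its start, and the widest peaks of Kcnt2 lie together.

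Averaged over its peaks, a gene could also be compared as a unit, again as a description. At 21 of the 83 genes (25.3%) the means of KO and WT did not overlap, against 25.0% of all genes with a peak. KO was higher at 4 (4.82%, against 6.37% of all genes with a peak) and lower at 17 (20.5%, against 18.7%). Of the 38 channel and receptor genes with 3 or more peaks, 9 had means that did not overlap, 7 lower and 2 higher in KO. Their differences ran from -0.47 to 0.43. The share over all genes with 3 or more peaks was not computed, so this count has no background beside it. Lowest was Kcnu1, a potassium channel of sperm, with 4.18, 4.46 and 4.36 in WT and 3.75, 3.91 and 3.93 in KO over 4 peaks. Kcnh1 (-0.45), the L-type calcium channel gene Cacna1c (-0.44), Gabbr2 (-0.29), Scn8a (-0.28), Cacna2d4 (-0.24) and Gabrb1 (-0.21) were also lower, while Kcns3 (0.43), a modulatory potassium channel subunit, was among those higher.

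Some channels and receptors with known roles in the colon epithelium were marked. Of 12 such genes 4 had a peak (33.3%, against 37.4% of all channel and receptor genes, these 12 included). The shares were not matched for gene length, and the 4 genes with a peak were 172 to 725 kb long. The other 8 had none, among them Kcne3, Kcnn4 and Chrm3, which serve chloride secretion. Of the marked ones, Kcnq1, the partner of Kcne3, had 4, Cacna1d 3, and Kcnma1 and Htr4 1 each. None of these 9 peaks was called. The CpG-rich peak of Kcnq1 (chr7:143294551-143296650), which covers the annotated start of Kcnq1ot1, the noncoding transcript of an imprinted domain, came closest. It read 5.03, 5.28 and 5.29 in WT and 5.74, 5.97 and 5.57 in KO, with a difference of 0.56 and an SE of 0.19 (limma, adjusted p = 0.152), and the input held 18 and 25 reads. The other 3 Kcnq1 peaks differed by 0.06, -0.47 and -0.64 (-0.24 without KO replicate 1), so that the gene held both signs. At Kcnma1, the large-conductance potassium channel, WT read 4.87, 4.96 and 4.92 and KO 4.86, 4.42 and 4.42.

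Peaks at transcript starts were few and did not pass the test. Among the 8 were peaks at Gabra2, Gabra5, Kcnc2, Kcnv1 and, with 2 of them, Grik2. The RefSeq promoter table of GRCm38 has an entry for 60 of the 83 genes. At Gabra2, a GABA-A receptor subunit, the peak covered the 250 bases before the listed start as a whole, and these bases are printed as an example of a promoter under the mark, 5′ to 3′ on the minus strand, with CpG in capitals.
Gabra2, chr5:71095850-71096099: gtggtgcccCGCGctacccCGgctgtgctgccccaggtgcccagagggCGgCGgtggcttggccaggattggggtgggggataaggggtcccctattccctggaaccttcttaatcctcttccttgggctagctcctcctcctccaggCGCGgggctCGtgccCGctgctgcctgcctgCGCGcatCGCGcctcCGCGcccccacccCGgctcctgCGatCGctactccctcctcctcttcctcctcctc
They hold 18 CpG, and 21.7% of the 32851 windows of this length in the table hold as many or more. The peak read 4.43, 4.10 and 4.12 in WT and 4.66, 4.20 and 4.48 in KO. The groups overlap, and the difference was 0.23 with an SE of 0.26 (limma, adjusted p = 0.83). At Gabra5, whose peak had 97.0 CpG per kb, WT read 4.43, 4.31 and 3.80 and KO 4.86, 4.66 and 4.28.

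A split by CpG density was made after the values were seen, and in it the channel and receptor peaks were close to all peaks. Of the 9 channel and receptor peaks with at least 30 CpG per kb, 7 had a difference above 0, among them Grin3b, Kcnq1, Gabra5, Gabra2, Kcnv1 and Grin2b, while Kcnc2 and Grm7 were below 0. Their median difference was 0.23. Among all 1201 peaks of that density 67.4% were above 0, with a median of 0.20. The sets differed in sequence, with a median of 9.29% of soft-masked bases in the 9 peaks and 62.3% in the 1201. At 20 CpG per kb or more, 12 of 19 channel and receptor peaks (63.2%) and 60.0% of all such peaks were above 0. At 30 CpG per kb or more, only Grin3b of the 9 was called, and 69 of the 1201.

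Other genes of synapses and membrane transport, taken from lists, were looked at in the same fit. A list of 70 further channels, such as chloride, calcium release and transient receptor potential channels, had 86 peaks at 28 genes, of which none was called, and their median difference was -0.11. Synaptic partner genes, which encode scaffolds and adhesion proteins, had 293 peaks at 26 of 51 genes. There 65 peaks were called (22.2%), 64 higher and 1 lower, but 63 of them belonged to Grip1, a scaffold that binds AMPA receptors. The others were a peak of the adhesion gene Nrxn3, which rose by 0.98 (limma, adjusted p = 0.0279), and one of the scaffold gene Dlg1, which fell by 1.21 (limma, adjusted p = 0.0294). Of 11 enteric neuron and glia marker genes none had a peak, and of 9 immune and stroma markers 2 had 1 each, neither called. Of 24 genes of epithelial ion transport 3 had 7 peaks and of 15 epithelial identity genes 1 had 2, again with no call; absence of H3K9me3 does not show which cells were present.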

How the data were processed

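H3K9me3 in colon crypts was measured in 3 WT and 3 Smarcad1-KO ChIP libraries, with 1 input library for each genotype. Per the submitters' processing notes, reads were trimmed with Trim Galore 0.6.1, mapped to GRCm38 with Bowtie2 2.3.2 and called with MACS. The authors called peaks once on all ChIP libraries and annotated the closest gene. In the deposited table each ChIP value is a log2 read count, given a lower limit and then matched by the authors to a shared distribution across libraries, so differences are relative to it; the input values are log2 read counts that were not scaled. A second table holds the authors' own edgeR comparison (p-values and fold changes) and was not used.

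KO was compared with WT by limma 3.58.1 (R 4.3.3) on all 53761 peaks in a model of genotype alone, with a trended variance prior, two-sided p-values and Benjamini-Hochberg adjustment. In simulated data for this comparison on 53761 peaks, 41 of 100 peaks changed by 1 and 89 of 100 changed by 2 (log2) were recovered, with 12 false calls. The simulated noise was normal, with an SD set by the level of the peak alone. Differences in spread between peaks of the same level were left out, so these counts may be too favourable. Python 3.11.15, numpy 2.4.6 and pandas 2.3.3 summarised the members. Gene positions came from GENCODE vM21, and all 83 gene identifiers were found there. GC, CpG and repeats came from GRCm38. Reads behind a ChIP value were recovered from the steps of the values.

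Genes named are those with a called peak, the largest non-overlapping differences and the highest level per kb (peaks of at least 1 kb) of each class, the 10 genes with most peaks, and 12 channel and receptor genes of the colon epithelium. Peaks next below the threshold, at transcript starts or rich in CpG, and genes with non-overlapping means, were named after their values were seen. Some genes that these rules name are not reported here. Members and lists were chosen with earlier results of these data known. Alternatives were a prior without a trend, a mean log2 value of at least 4, centring, quantile normalization, ChIP minus input, the replicate block, other thresholds, voom on recovered reads (up to 100), subsets of members, and leaving out each library; leaving out Grik2 and the split by gene length were added after seeing the data.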

Additional observations from a re-analysis of the deposited data

How the results depend on the processing

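The count of 2 called channel and receptor peaks, 1 higher and 1 lower in KO, was the same with centred libraries, further quantile normalization, voom on recovered reads and the peaks overlapping the gene only, and with Grik2 left out. The replicate block also gave 2. No source used here says whether libraries of the same number are paired. Their deviations from the group means had correlations of -0.00126, 0.0191 and 0.0164, which cannot decide it. Without a trend in the variance prior 0 peaks were called (24 had an unadjusted p under 0.05, and voom called 2), where the count over all peaks fell from 892 to 127; the cause was not tested. Restricted to peaks averaging at least 4, only Grin3b was called (1, with 1 higher and 0 lower). Receptor and pore-forming subunits alone gave 1 (0 lower), as did an adjusted p under 0.01, while requiring a change of 1 or more on the log2 scale gave 1 (0 higher). ChIP minus input called 107 peaks, 60 higher and 47 lower, or 28.7% of the channel and receptor peaks and 29.5% of all; there 1 input library is subtracted from all 3 ChIP libraries of a genotype, so its counting error enters as a difference without spread. Leaving out 1 library gave 1 to 2 calls, 1 higher each time and 0 to 1 lower; without WT replicate 1, 2 or 3 only Grin3b was called, and without KO replicate 1 the decreased peak was at Gabbr2.

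Class means moved by more than their SD under ChIP minus input, to 0.025 (ionotropic glutamate), 0.13 (GABA), 0.12 (calcium), 0.14 (sodium) and -0.18 (serotonin). With each gene counted once, ionotropic glutamate receptors came to -0.086 and calcium channels to -0.26, and pore-forming calcium channel subunits alone to -0.26. Without a trend the adjusted p was 0.312 for Grin3b and 0.0878 for Cacna2d4.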
